A study of Mus musculus with 12 samples.

Results

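The insulin-like growth factor (IGF) system was examined in mouse brain tissue through 10 genes of 21956 in the count table: the ligands Igf1 and Igf2, the receptors Igf1r and Igf2r, and the binding proteins Igfbp2, Igfbp3, Igfbp4, Igfbp5, Igfbp6 and Igfbp7. The set was selected on symbol, and it was chosen by an earlier look at these data in which Igfbp2 was lower in knockout mice of both surgery groups, so the genotype differences below are descriptions without a test. IGF1 and IGF2 are secreted peptides that act through IGF1R, a receptor tyrosine kinase that signals through IRS adaptors, PI3K and AKT. IGF2R, also the mannose 6-phosphate receptor of lysosomal enzyme sorting, takes up IGF2 for degradation and carries no kinase. IGFBP2 to IGFBP6 hold the ligands outside the cell with high affinity and can block or prolong their action, whereas IGFBP7 binds IGFs weakly and is a vascular matrix protein. In brain, IGF1 comes from neurons and, after injury, from microglia and macrophages, and IGF2 and IGFBP2 are abundant products of the choroid plexus and leptomeninges.

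RNA came from brain tissue of 12 mice, 3 in each of 4 groups. The tissue was hematoma-adjacent in ICH mice and taken in the same way in sham mice, which had no hematoma. Intracerebral hemorrhage (ICH) was made by collagenase injection into the right striatum, and the tissue of ICH mice was taken 48 h later. Sham mice had the same surgery without collagenase. Fabp4flox/flox mice carried floxed Fabp4, the gene of fatty acid-binding protein 4, a lipid carrier. Fabp4CKO mice also carried a Tmem119-driven, tamoxifen-inducible Cre recombinase and received tamoxifen, so recombination was directed at microglia and the other cells kept the gene. The Sham-Fabp4flox/flox, Sham-Fabp4CKO, ICH-Fabp4flox/flox and ICH-Fabp4CKO groups served the questions of how ICH and microglial Fabp4 loss changed the tissue. Whether Fabp4flox/flox mice received tamoxifen is not given in the sources used here. Each library held polyadenylated RNA of all cells in the piece, so fewer cells of a type and less RNA per cell cannot be told apart.

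The 12 libraries held 15650813 to 22406216 counts. Fabp4 had 46, 63 and 24 counts in ICH-Fabp4flox/flox mice 1 to 3 and 5, 3 and 10 in ICH-Fabp4CKO mice, against 2, 1 and 2 in Sham-Fabp4flox/flox and 0 in each Sham-Fabp4CKO mouse. Several libraries stood apart. Choroid plexus markers summed to 868, 1645 and 3238 CPM, the count scaled to 1e+06 per library, in Sham-Fabp4flox/flox mice 1, 2 and 3, against 21.3 to 52.0 in the other 9 libraries. ICH-Fabp4CKO mouse 2 had a monocyte and macrophage marker sum of 1014 CPM beside 4912 and 8430 in the other mice of its group. ICH-Fabp4CKO mouse 1 had 1 count over 4 Y-linked genes, against 1302 to 2251 in each other library. ICH-Fabp4flox/flox mouse 1 had 16.3% mitochondrial counts, against 7.90% to 11.9% elsewhere. Marker sums of astrocytes, neurons, oligodendrocytes and striatal projection neurons were present in every library, but those of striatal projection neurons were uneven. In Fabp4flox/flox mice 1 to 3 they were 1064, 1199 and 3420 CPM after sham surgery and 760, 1051 and 2895 after ICH. In Fabp4CKO mice they were 2235 to 4089 in sham and 918 to 2146 after ICH. Whether the dissected region differed between mice was not tested.

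Igfbp2 and Igfbp5 are annotated neighbours on chromosome 1, tail to tail, 5.46 kb apart with 0 annotated genes between them (GENCODE M21). Their starting sequences are shown because the neighbours differed in opposite directions between genotypes after ICH. Those of Igfbp3 and Igfbp7 are shown because both genes rose after ICH in both genotypes. Each window runs from 250 bases before to 50 after a RefSeq start on GRCm38.p6, 5′ to 3′ on the gene's strand, and capitals mark matches on either strand to 5 strings, which are the TATA box TATAAA, its variant TATTTAA, the GC box GGGCGG, the CCAAT box and the AP-1 site TGANTCA.
Igfbp2, chr1:72824230-72824529, plus strand: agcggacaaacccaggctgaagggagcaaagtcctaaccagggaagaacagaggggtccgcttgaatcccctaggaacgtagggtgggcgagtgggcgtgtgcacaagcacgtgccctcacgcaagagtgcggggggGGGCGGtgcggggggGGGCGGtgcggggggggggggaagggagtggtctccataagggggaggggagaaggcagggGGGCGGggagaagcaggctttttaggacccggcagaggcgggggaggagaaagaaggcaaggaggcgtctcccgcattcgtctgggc
Igfbp5, chr1:72874816-72875115, minus strand: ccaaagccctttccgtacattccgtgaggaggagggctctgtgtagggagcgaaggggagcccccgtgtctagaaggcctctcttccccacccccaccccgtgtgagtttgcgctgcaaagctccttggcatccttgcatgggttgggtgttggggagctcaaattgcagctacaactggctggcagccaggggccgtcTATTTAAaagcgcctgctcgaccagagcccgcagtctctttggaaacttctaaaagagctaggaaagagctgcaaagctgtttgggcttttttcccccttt
Igfbp3, chr11:7213874-7214173, minus strand: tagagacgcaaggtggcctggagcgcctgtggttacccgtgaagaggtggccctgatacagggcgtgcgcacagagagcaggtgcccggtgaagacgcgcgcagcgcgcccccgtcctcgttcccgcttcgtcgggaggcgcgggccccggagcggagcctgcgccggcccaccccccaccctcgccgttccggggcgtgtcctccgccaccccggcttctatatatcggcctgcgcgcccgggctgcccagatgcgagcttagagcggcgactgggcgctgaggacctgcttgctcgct
Igfbp7, chr5:77407996-77408295, minus strand: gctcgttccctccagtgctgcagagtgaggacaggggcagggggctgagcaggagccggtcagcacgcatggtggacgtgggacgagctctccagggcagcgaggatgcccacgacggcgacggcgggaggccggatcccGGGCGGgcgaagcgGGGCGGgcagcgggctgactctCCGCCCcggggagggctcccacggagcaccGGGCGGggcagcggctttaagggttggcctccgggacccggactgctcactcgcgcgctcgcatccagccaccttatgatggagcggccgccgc
The printed Igfbp2 window held 3 matches to GGGCGG and the Igfbp7 window 4, a string found in 35.7% of 32851 such windows. The Igfbp5 window held 1 match to TATTTAA, found in 4.51% of windows, and no other. The Igfbp3 window held no match. TATAAA was found in 13.6%, CCAAT in 37.4% and TGANTCA in 7.81% of windows, and in the printed windows no match of one string overlapped a match of another. The neighbours differed in base composition as well: the windows of Igfbp2 and Igfbp5 held 18 and 10 CpG sites and were 67.0% and 56.3% G or C. Those of Igfbp3 and Igfbp7 held 37 and 33 CpG sites, more than in 94.4% and 91.4% of windows. A further 10 windows were read for the other members and for second starts, so that all 10 members had at least 1. Among these, a second Igfbp2 window (chr1:72825137-72825436) held no match to GGGCGG and 1 match to TGANTCA.

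**Figure D1:**
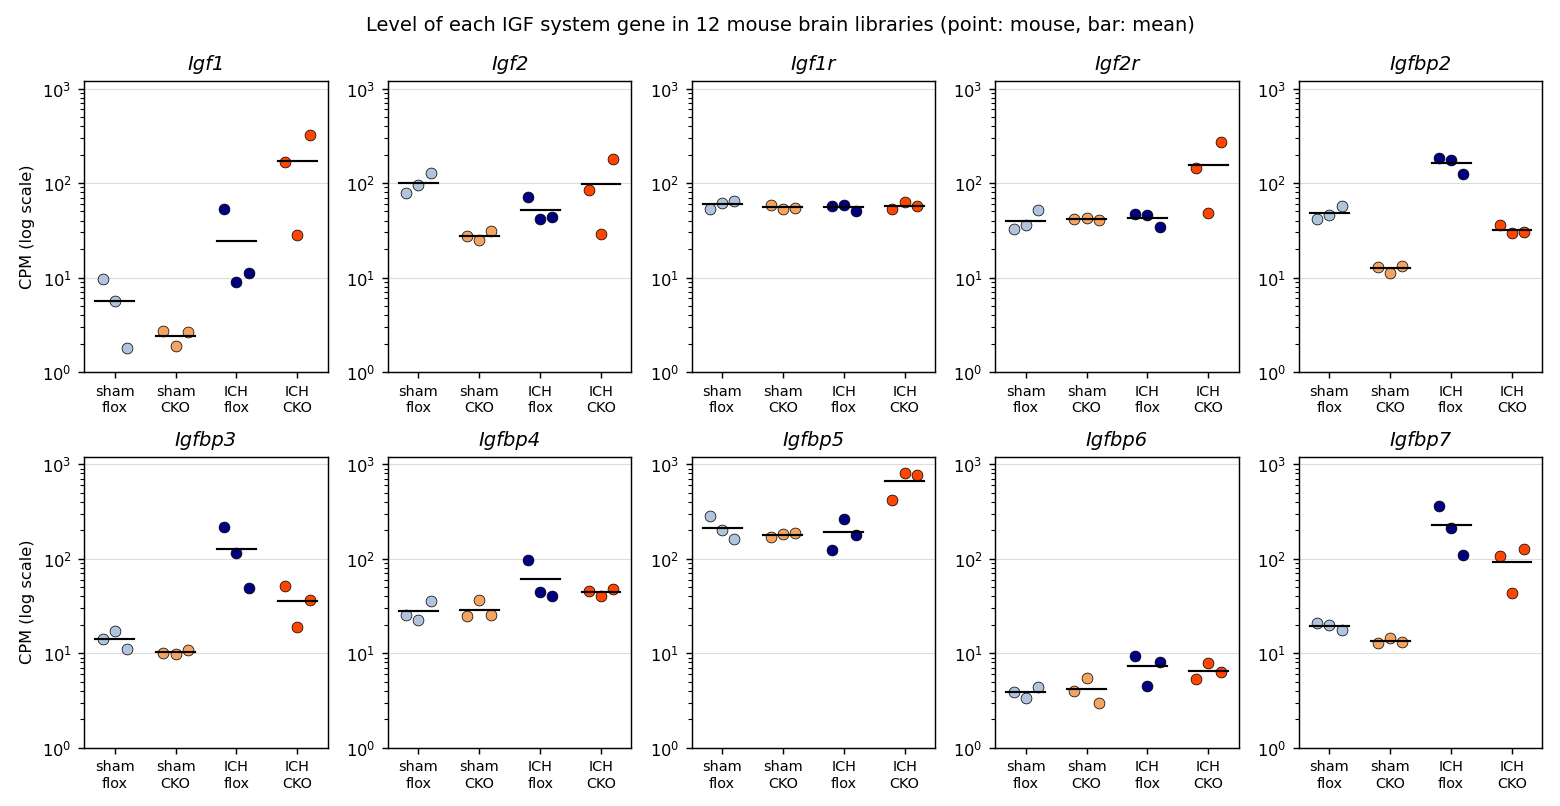
CPM of each of the 10 genes (vertical axis, log scale) in the 4 groups, with 1 point per mouse in the order mouse 1 to 3 and a bar at the group mean. Igfbp2 was between 11.3 and 13.3 in Sham-Fabp4CKO and between 124 and 183 in ICH-Fabp4flox/flox mice, while Igf1r was between 50.5 and 64.3 in all 12 libraries.

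Of the 10 genes, 4 rose and 1 fell after ICH in Fabp4flox/flox mice, and 7 rose after ICH in Fabp4CKO mice. Igfbp2, Igfbp3, Igfbp4 and Igfbp7 rose in both genotypes. Igf1, Igf2r and Igfbp5 passed the threshold in the higher direction in Fabp4CKO mice, and Igf2 in the lower direction in Fabp4flox/flox mice. ICH moved much of the transcriptome: 26.2% of 14719 genes were higher and 19.3% lower in Fabp4flox/flox mice, and 24.5% of 14737 higher and 11.1% lower in Fabp4CKO mice (edgeR's quasi-likelihood F-test, adjusted p under 0.05). The median log2 fold change of the 10 genes was 0.97 in Fabp4flox/flox and 1.81 in Fabp4CKO mice, beside 0.02 and 0.01 over all genes tested. All 10 genes passed the filter on low counts in every comparison, and none had fewer than 35 counts in a library. Adjusted p-values in the following paragraphs come from this test, with Benjamini-Hochberg adjustment over all genes tested.

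**Figure D2:**
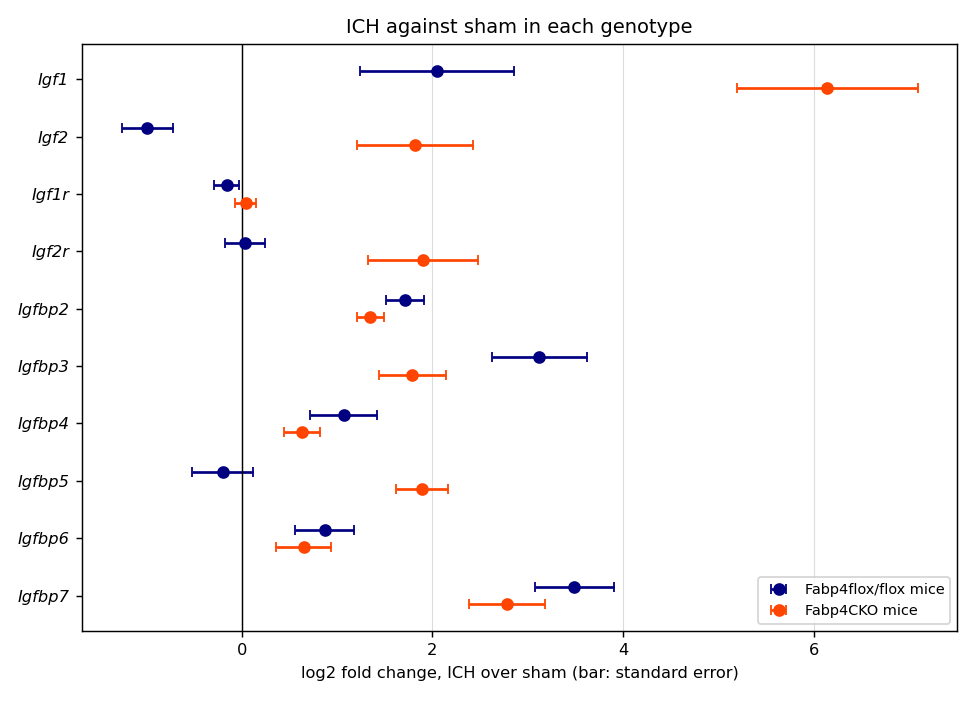
Log2 fold change of ICH over sham (horizontal axis) for the 10 genes in Fabp4flox/flox mice (navy) and Fabp4CKO mice (red-orange), with bars for the standard error. Igfbp3 and Igfbp7 lay highest in Fabp4flox/flox mice, at 3.12 and 3.49, and Igf1 highest in Fabp4CKO mice, at 6.14.

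Among the ligands, Igf1 measured 9.64, 5.64 and 1.81 CPM in Sham-Fabp4flox/flox mice 1 to 3, and 2.73, 1.88 and 2.67 in Sham-Fabp4CKO mice. After ICH it measured 53.7, 9.04 and 11.2 in Fabp4flox/flox mice, and 165, 28.3 and 319 in Fabp4CKO mice. All ICH-Fabp4CKO mice lay above all sham mice, but the ICH-Fabp4flox/flox mice reached down into the range of their own sham group and up into that of the knockout ICH group. Igf1 rose in Fabp4CKO mice by 6.14 on the log2 scale (SE 0.95, adjusted p = 0.00876), which is 70.5-fold. In Fabp4flox/flox mice its log2 fold change was 2.05 (SE 0.81, adjusted p = 0.0717), and without mouse 3 of the ICH group it was past the threshold, at an adjusted p of 0.0433, the lowest of the fits with 1 mouse left out. DESeq2 and the fit with the replicate number as a block also called it, with adjusted p down to 0.0135. The Fabp4CKO call was lost when any of the 3 Sham-Fabp4CKO mice was left out, with adjusted p up to 0.0539, while the log2 fold change in those fits was 5.98 to 6.23. In order of mean level, Igf1 went from Sham-Fabp4CKO to Sham-Fabp4flox/flox, ICH-Fabp4flox/flox and ICH-Fabp4CKO, and each neighbouring pair overlapped.

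Markers of monocytes and macrophages were higher after ICH as well. Their summed level was 759 to 1971 CPM in ICH-Fabp4flox/flox and 1014 to 8430 in ICH-Fabp4CKO mice, against 8.73 to 49.5 in sham mice, and 7 of 7 markers rose after ICH in each genotype. Lyz2 was the largest part of the sums after ICH, averaging 1060 CPM in Fabp4flox/flox and 4400 in Fabp4CKO mice. In the same order, Ms4a7 averaged 19.7 and 73.7, Chil3 18.0 and 32.3, Ccr2 22.7 and 29.7, and Ly6c2 11.2 and 11.4. Plac8 averaged 14.9 and 12.6 and Arg1 279 and 226, lower in Fabp4CKO mice. Within ICH-Fabp4CKO, mouse 2 had the lowest sum and the lowest Igf1, and mouse 3 the highest of both. The orders differed within ICH-Fabp4flox/flox, in which the sums of mice 1, 2 and 3 were 1971, 1547 and 759 CPM and mouse 2 had the lowest Igf1. In Sham-Fabp4CKO mice the monocyte marker Chil3 was at 0 in each library, and Ccr2, Ly6c2, Ms4a7 and Arg1 had at most 3 counts. Microglial markers summed to 1657 to 1848 CPM in ICH-Fabp4flox/flox and 1826 to 4720 in ICH-Fabp4CKO mice, against 434 to 526 in sham mice. The part of these cells in the Igf1 level was not tested.

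Igf2 measured 78.1, 94.2 and 128 CPM in Sham-Fabp4flox/flox mice 1 to 3, and 27.6, 24.9 and 30.8 in Sham-Fabp4CKO mice. After ICH it measured 71.7, 41.6 and 43.3 in Fabp4flox/flox mice, and 83.4, 29.1 and 181 in Fabp4CKO mice. The sham groups were far apart, and the knockout ICH group spanned almost the whole range of the gene. Igf2 fell by 0.99 on the log2 scale after ICH in Fabp4flox/flox mice (SE 0.27, adjusted p = 0.0208), and the groups did not overlap. The call was lost without Sham-Fabp4flox/flox mouse 3 or without ICH-Fabp4flox/flox mouse 2 (adjusted p up to 0.0696), and also with all 12 libraries in one fit (adjusted p = 0.135). In Fabp4CKO mice the log2 fold change was 1.82 (SE 0.61, adjusted p = 0.0581), and it was past the threshold without ICH-Fabp4CKO mouse 2, at an adjusted p of 0.000381, and in DESeq2 and when all 12 libraries were fitted jointly, with adjusted p down to 0.00939.

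The Sham-Fabp4flox/flox mice followed the same order in Igf2 as in choroid plexus markers, at 868, 1645 and 3238 CPM. All 8 of 8 choroid plexus markers fell after ICH in Fabp4flox/flox mice. Ttr, the transthyretin gene that defines this epithelium, averaged 1732 CPM in Sham-Fabp4flox/flox and 17.4 in Sham-Fabp4CKO mice. Kcnj13, Folr1 and Kcne2 had at most 33 counts in each library of the other 3 groups, but not all markers were so low there. Clic6 had 427 to 519 counts in Sham-Fabp4CKO libraries, within the 395 to 1409 of Sham-Fabp4flox/flox libraries, and Kl had 96 to 141 against 811 to 2736. Aqp1 averaged 0.289 CPM in Sham-Fabp4CKO and 5.03 in ICH-Fabp4CKO mice. Fibroblast and leptomeningeal markers summed to 792, 72.6 and 1525 CPM in ICH-Fabp4CKO mice 1 to 3, in the order of Igf2 in those mice. They went the other way from Igf2 in Fabp4flox/flox mice, from 38.8 to 72.7 in sham mice to 349, 205 and 99.3 in ICH mice 1 to 3, and their order after ICH was not that of Igf2. In these markers 7 of 9 rose in Fabp4CKO and 5 of 9 in Fabp4flox/flox mice. The part of choroid plexus and meningeal tissue in the Igf2 level was not tested. Igf2 overlaps Gm49394 on the same strand and Igf2os on the other, and the strand setting of the counting is not given in the sources used here. Gm49394 had at most 23 counts in a library, against at least 546 for Igf2, and Igf2os was not analysed here.

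**Figure D3:**
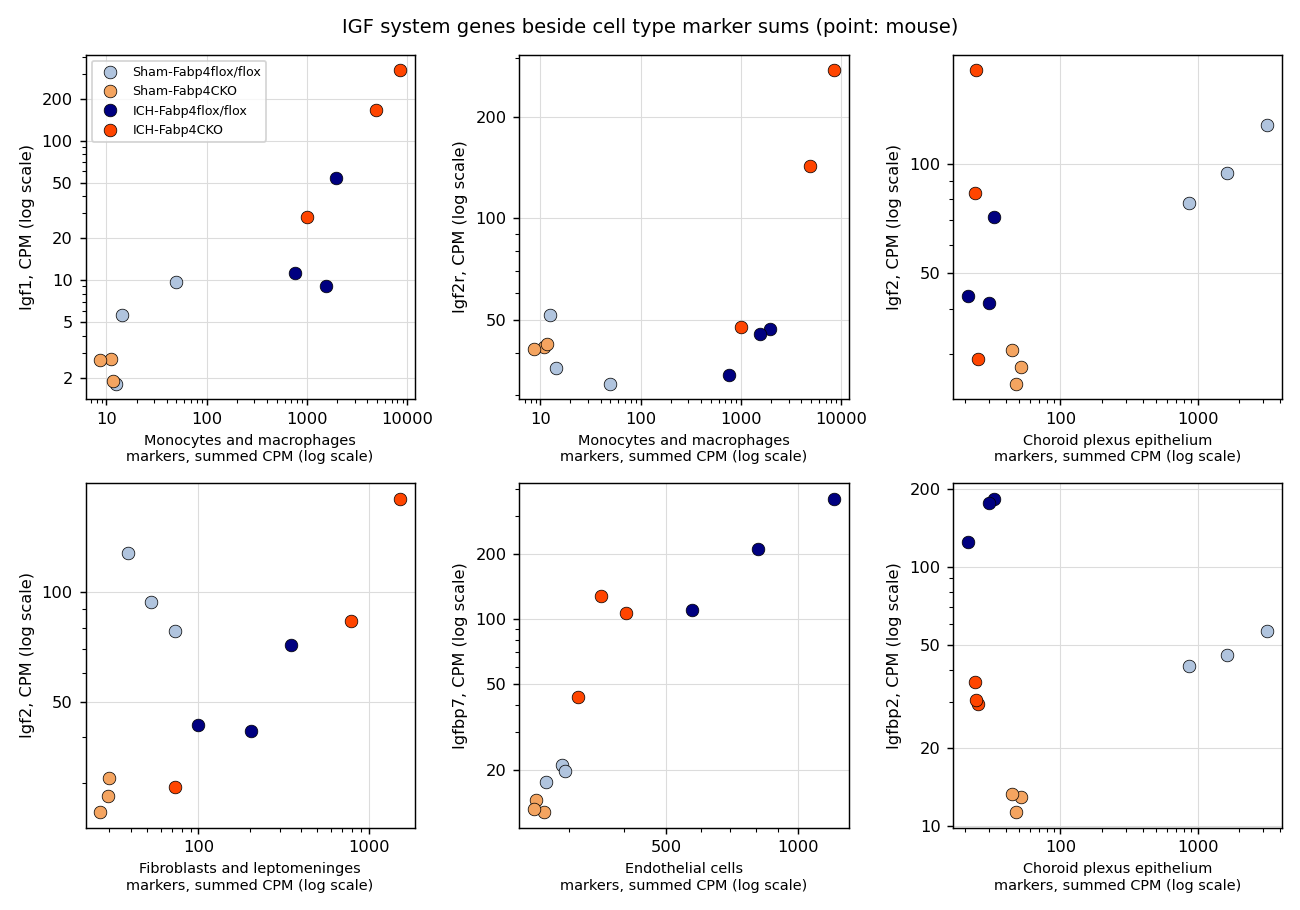
CPM of Igf1, Igf2r, Igf2, Igfbp7 and Igfbp2 (vertical axes) against the summed CPM of a cell type's markers (horizontal axes), both on log scales, with 1 point per mouse coloured by group. Igf1 and Igf2r were highest in the ICH-Fabp4CKO mice whose monocyte and macrophage sums were 4912 and 8430, and the Sham-Fabp4flox/flox mice stood alone at choroid plexus sums of 868 and above.

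The receptors differed. Igf1r, the signalling receptor, measured 50.5 to 64.3 CPM over the 12 libraries, and its group means were 55.3 to 59.9. Its log2 fold change after ICH was -0.16 (SE 0.13, adjusted p = 0.359) in Fabp4flox/flox and 0.04 (SE 0.11, adjusted p = 0.780) in Fabp4CKO mice. Igf2r measured 32.4, 36.1 and 51.7 CPM in Sham-Fabp4flox/flox, 41.5, 42.6 and 41.0 in Sham-Fabp4CKO, and 47.0, 45.5 and 34.4 in ICH-Fabp4flox/flox mice. In ICH-Fabp4CKO mice it measured 143, 47.7 and 275, so mice 1 and 3 stood well above every other library and mouse 2 did not. Igf2r rose in Fabp4CKO mice by 1.90 on the log2 scale (SE 0.58, adjusted p = 0.0468). That call held without ICH-Fabp4CKO mouse 2 but was lost on leaving out any 1 of the other 5 mice of the comparison, with adjusted p up to 0.136, and it was lost with the replicate number as a block (adjusted p = 0.0872). In Fabp4flox/flox mice the log2 fold change was 0.03 (SE 0.21, adjusted p = 0.907). Mice 1 and 3 of the knockout ICH group were also those with high monocyte and macrophage sums, of which Lyz2 was the largest part. The part of this relation in the result was not tested. Igf2r overlaps the antisense gene Airn, which was not analysed here.

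The binding proteins Igfbp3 and Igfbp7 had the largest increases of the 10 genes in Fabp4flox/flox mice. Igfbp3, a carrier of IGFs that is abundant in plasma, measured 14.1, 17.0 and 11.0 CPM in Sham-Fabp4flox/flox and 219, 114 and 49.1 in ICH-Fabp4flox/flox mice. In Fabp4CKO mice it measured 9.94, 9.85 and 10.9 in sham and 51.0, 19 and 36.5 after ICH. Every ICH mouse lay above every sham mouse of its genotype. The log2 fold change was 3.12 (SE 0.50, adjusted p = 0.00300) in Fabp4flox/flox and 1.79 (SE 0.35, adjusted p = 0.0153) in Fabp4CKO mice.

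Igfbp7 measured 21.1, 19.8 and 17.6 CPM in Sham-Fabp4flox/flox and 360, 210 and 110 in ICH-Fabp4flox/flox mice. In Fabp4CKO mice it measured 12.8, 14.5 and 13.2 in sham and 107, 43.4 and 128 after ICH. The highest level in each genotype's sham mice was below the lowest after ICH. The log2 fold change was 3.49 (SE 0.41, adjusted p = 0.000852) in Fabp4flox/flox and 2.78 (SE 0.40, adjusted p = 0.00768) in Fabp4CKO mice. The Fabp4CKO calls of Igfbp3 and Igfbp7 were lost without Sham-Fabp4CKO mouse 3 (adjusted p up to 0.0721 and 0.0507), and that of Igfbp3 also without mouse 1 or mouse 2 of that group.

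The summed level of endothelial markers was higher after ICH as well. It was 571 to 1204 CPM in ICH-Fabp4flox/flox and 315 to 404 in ICH-Fabp4CKO mice, against 250 to 293 in sham mice. In Fabp4flox/flox mice 8 of 8 markers rose, beside 26.2% of all genes, and in Fabp4CKO mice 2 of 8, near the 24.5% of all genes. In Fabp4CKO mice, sham and ICH means were 27.8 and 29.5 CPM for Cldn5 and 88.0 and 88.3 for Flt1, but 28.1 and 73.7 for Pecam1 and 19.4 and 49.4 for Cdh5. ICH-Fabp4flox/flox mice 1, 2 and 3 had endothelial sums of 1204, 810 and 571, the order of their Igfbp3 and Igfbp7 levels. In ICH-Fabp4CKO mice the sums of 404, 315 and 354 followed the order of Igfbp3 but not that of Igfbp7, which was highest in mouse 3. Pericyte and smooth muscle markers summed to 603 to 1135 in ICH-Fabp4flox/flox and 322 to 562 in ICH-Fabp4CKO mice, against 204 to 284 in sham mice. The part of vessel cells in the 2 genes' levels was not tested. Igfbp7 overlaps Polr2b on the opposite strand, so their reads could be told apart only by a stranded count.

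Igfbp2, a binding protein of astrocytes, choroid plexus and leptomeninges, measured 41.5, 45.6 and 56.5 CPM in Sham-Fabp4flox/flox and 183, 176 and 124 in ICH-Fabp4flox/flox mice. In Fabp4CKO mice it measured 12.9, 11.3 and 13.3 in sham and 35.9, 29.4 and 30.5 after ICH. The 4 groups did not overlap, in the order Sham-Fabp4CKO, ICH-Fabp4CKO, Sham-Fabp4flox/flox and ICH-Fabp4flox/flox, so that knockout mice after ICH lay below control mice after sham surgery. Igfbp2 rose after ICH by 1.71 on the log2 scale (SE 0.20, adjusted p = 0.000847) in Fabp4flox/flox and by 1.35 (SE 0.14, adjusted p = 0.00540) in Fabp4CKO mice. It was the only member whose calls held in all 12 fits with 1 mouse left out, with adjusted p at most 0.00847 and 0.0457. Astrocyte markers summed to 3365 to 3865 CPM in sham and 5822 to 8170 in ICH mice and overlapped between genotypes after ICH. Single astrocyte markers did not all do so: after ICH, Gfap was 4093 to 4420 CPM in Fabp4flox/flox and 2349 to 3152 in Fabp4CKO mice, and Aldh1l1 159 to 193 and 75.9 to 107, both lower in knockout mice without overlap, as Igfbp2 was. Slc1a2 and Slc1a3, the glutamate transporter genes of astrocytes, averaged 1023 and 450 CPM in ICH-Fabp4flox/flox and 1886 and 638 in ICH-Fabp4CKO mice. The part of astrocytes in the Igfbp2 level was not tested.

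Igfbp5, which binds IGFs and also matrix, had the highest mean level per kilobase of exon in 3 of the 4 groups, at 35.5 ± 10.3 CPM per kilobase in Sham-Fabp4flox/flox, 29.8 ± 1.45 in Sham-Fabp4CKO and 110 ± 35.5 in ICH-Fabp4CKO mice (SD, n = 3). In Sham-Fabp4flox/flox mice Igfbp2 followed at 25.9 ± 4.20 and in ICH-Fabp4CKO mice Igfbp7 at 76.8 ± 36.4, each within the spread. In ICH-Fabp4flox/flox mice Igfbp7 led at 188 ± 104 and Igfbp2 followed at 87.1 ± 17.4, with Igfbp3 at 40.7 ± 27.4 and Igfbp5 at 31.6 ± 11.8. As CPM, Igfbp5 measured 281, 199 and 160 CPM in Sham-Fabp4flox/flox, 169, 183 and 186 in Sham-Fabp4CKO and 125, 266 and 180 in ICH-Fabp4flox/flox mice. In ICH-Fabp4CKO mice it measured 418, 798 and 775, above every other library. Igfbp5 rose in Fabp4CKO mice by 1.89 on the log2 scale (SE 0.27, adjusted p = 0.00768), and the call was lost when any Sham-Fabp4CKO mouse was left out (adjusted p up to 0.0515), with log2 fold changes of 1.85 to 1.91 in those fits. In Fabp4flox/flox mice the log2 fold change was -0.20 (SE 0.32, adjusted p = 0.621). Within the knockout ICH group, mouse 2 had the lowest monocyte and macrophage sum and the highest Igfbp5. Neuronal markers there summed to 1515, 3218 and 992 CPM in mice 1 to 3, highest in mouse 2 but lowest in mouse 3. In ICH-Fabp4flox/flox mice these sums were 1153, 1764 and 2555. The part of any of these cells in the Igfbp5 level was not tested.

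Igfbp4 and Igfbp6 moved less. Igfbp4, whose protein is cut by the protease PAPP-A to free IGF, measured 22.3 to 36.8 CPM in sham and 40.5 to 97.3 in ICH mice. It rose by 1.07 on the log2 scale in Fabp4flox/flox mice (SE 0.35, adjusted p = 0.0406) and by 0.63 in Fabp4CKO mice (SE 0.19, adjusted p = 0.0448). Both calls depended on single mice. Each was lost in 4 of 6 fits with 1 mouse left out, in Fabp4flox/flox mice without mouse 1 or 2 of either group (adjusted p up to 0.137) and in Fabp4CKO mice without mouse 1 or 3 of either group (adjusted p up to 0.148). The Fabp4CKO call was also lost with library totals in place of TMM, without the filter, with the block and when all 12 libraries were fitted jointly, with adjusted p up to 0.128. Igfbp6, which prefers IGF2, measured 2.99 to 5.46 CPM in sham and 4.55 to 9.36 in ICH mice. Its log2 fold change was 0.87 (SE 0.31, adjusted p = 0.0516) in Fabp4flox/flox and 0.65 (SE 0.29, adjusted p = 0.111) in Fabp4CKO mice. The former was past the threshold without ICH-Fabp4flox/flox mouse 2 (adjusted p = 0.0251), with DESeq2, with the block and when all 12 libraries were fitted jointly.

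The genotype differences follow as a description, because the genes were chosen with them known, and they share their libraries with the comparisons of ICH with sham. After ICH, Igfbp2 was lower in Fabp4CKO mice (log2 fold change -2.27, SE 0.20), at 31.9 ± 3.52 CPM (SD, n = 3) against 161 ± 32.2 (SD, n = 3). In sham mice its log2 fold change was -1.92 (SE 0.14), at 12.5 ± 1.09 against 47.8 ± 7.76 CPM (SD, n = 3 each). Over all alternatives and with each mouse left out, these values ran from -2.45 to -2.20 and from -2.03 to -1.78. In the sham mice the choroid plexus sum differed in the same direction, with a range of 868 to 3238 against 44.1 to 52.0 CPM. After ICH those sums were 21.3 to 32.9 in Fabp4flox/flox and 23.8 to 25.0 in Fabp4CKO mice. Other marker sums were lower in ICH-Fabp4CKO than in ICH-Fabp4flox/flox mice without overlap, as Igfbp2 was: 5859 to 9852 against 15350 to 22631 CPM for oligodendrocytes, 315 to 404 against 571 to 1204 for endothelial cells, and 322 to 562 against 603 to 1135 for pericytes and smooth muscle. In the last list Pdgfrb went the other way, averaging 74.5 CPM in ICH-Fabp4CKO and 62.6 in ICH-Fabp4flox/flox mice. The other markers of that list had lower means in ICH-Fabp4CKO mice, but some overlapped, as Abcc9 did at 14.9 to 24.0 against 23.1 to 24.7. The part of any of these cells in the Igfbp2 difference was not tested.

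After ICH the neighbouring gene Igfbp5 was higher in Fabp4CKO mice (log2 fold change 1.85, SE 0.39, 664 ± 213 against 190 ± 71.1 CPM, SD, n = 3 each), and Igf2r was higher as well (1.93, SE 0.59), although its lowest ICH-Fabp4CKO level of 47.7 CPM was close to the highest ICH-Fabp4flox/flox level of 47.0. Igf1 had a log2 fold change of 2.88 (SE 1.04), Igfbp3 of -1.77 (SE 0.58) and Igfbp7 of -1.22 (SE 0.53), with overlapping groups. Igfbp2 was the only member lower without overlap, and Igf2r and Igfbp5 the only ones higher. Among 14600 genes, 8.30% were higher and 11.5% lower without overlap. Of all genes, 0 passed the adjusted threshold in either direction (0% higher and 0% lower), while 1777 genes had an unadjusted p under 0.05, and DESeq2 called 233 genes higher and 291 lower.

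In sham mice, Igf2 (log2 fold change -1.84, SE 0.19), Igfbp2, Igfbp3 (-0.44, SE 0.17) and Igfbp7 (-0.52, SE 0.11) were lower in Fabp4CKO mice without overlap, and no member was higher. Over 14395 genes, 5.98% were higher and 8.86% lower without overlap. Of all genes, 0.111% were lower and 0% higher at the adjusted threshold, which is not applied to the members here. Without Sham-Fabp4flox/flox mouse 3, 1531 genes were higher and 1331 lower. The 16 genes lower with all mice became 0 without Sham-Fabp4flox/flox mouse 2 and without any 1 of the Sham-Fabp4CKO mice. Because the members were chosen by this difference, nothing is read from these counts.

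**Figure D4:**
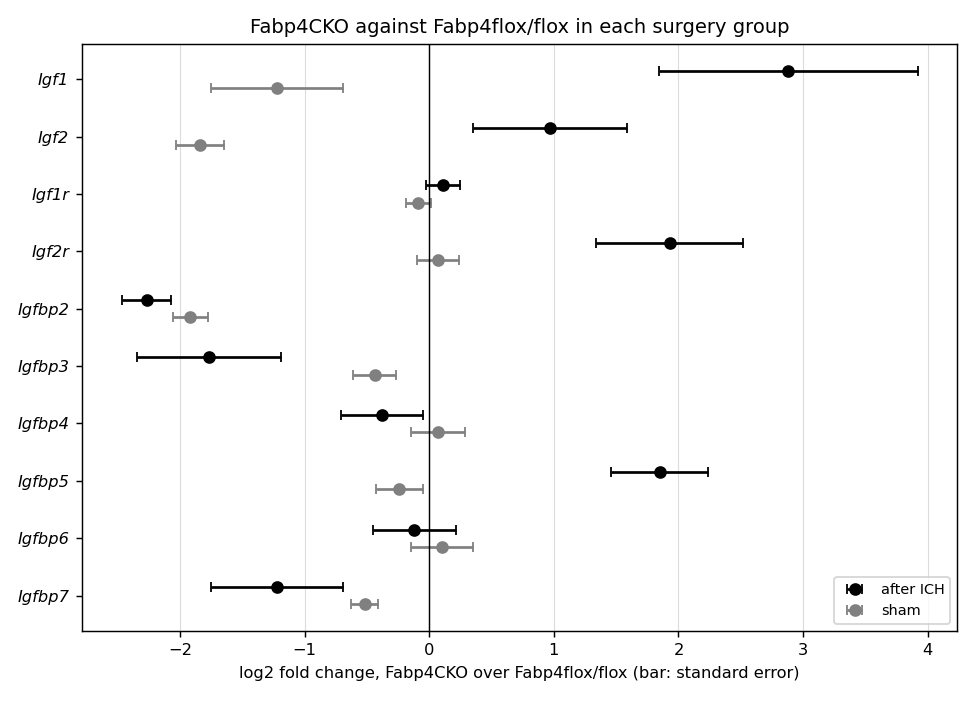
Log2 fold change of Fabp4CKO over Fabp4flox/flox (horizontal axis) for the 10 genes after ICH (black) and in sham mice (grey), with bars for the standard error. Igfbp2 lay at -2.27 and -1.92, and Igfbp5 at 1.85 after ICH and -0.24 in sham mice.

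Whether the response to ICH differed between the genotypes was tested as the interaction of surgery and genotype on all 12 libraries. No member was called, beside 0.0199% of 15089 genes called in either direction, 3 in all, and 4 members and 1500 genes had an unadjusted p under 0.05. Igfbp5 had an interaction of 2.06 on the log2 scale (SE 0.45, adjusted p = 0.193 in edgeR's quasi-likelihood F-test). The values were 2.76 for Igf2 (SE 0.71, adjusted p = 0.274), 4.03 for Igf1 (SE 1.29, adjusted p = 0.348) and 1.82 for Igf2r (SE 0.65, adjusted p = 0.392). Igfbp3 and Igfbp7 had values of -1.39 (SE 0.67) and -0.76 (SE 0.59). DESeq2 called Igf1, Igf2 and Igfbp5, and without ICH-Fabp4CKO mouse 2 the quasi-likelihood test called Igf2 and Igf2r. For Igfbp2, whose genotype difference chose the set, the value was -0.40 (SE 0.25). Differences between the genotypes in which members passed the threshold after ICH are thus not shown to be differences in response.

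The make-up of the binding protein transcripts was compared per kilobase of exon, for Igfbp2 to Igfbp6. These shares, and the ratio of Igfbp5 to Igfbp2 below, contain Igfbp2, whose genotype difference chose the set. Their differences between genotypes are thus not independent of that choice, and nothing is read from them. In sham mice Igfbp5 averaged 179 CPM in Fabp4CKO and 213 in Fabp4flox/flox mice, although its share was higher in Fabp4CKO mice. In Sham-Fabp4flox/flox mice, Igfbp5 made up 46.5% ± 9.92 and Igfbp2 34.5% ± 7.47 of the summed level (SD, n = 3). In ICH-Fabp4flox/flox mice the order was turned, with Igfbp2 at 49.0% ± 3.60 and Igfbp5 at 18.6% ± 7.98. In Fabp4CKO mice Igfbp5 led in both groups, at 59.5% ± 2.16 in sham and 69.9% ± 10.7 after ICH, with Igfbp2 at 13.6% ± 1.75 and 11.7% ± 3.91. Igfbp3 went from 5.95% ± 1.45 to 21.0% ± 9.96 in Fabp4flox/flox mice and from 6.53% ± 0.531 to 7.93% ± 5.10 in Fabp4CKO mice.

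The summed level of the 5 binding proteins was 71.4 to 83.0 CPM per kilobase in Sham-Fabp4flox/flox, 47.6 to 52.9 in Sham-Fabp4CKO, 129 to 220 in ICH-Fabp4flox/flox and 120 to 174 in ICH-Fabp4CKO mice. It was thus higher after ICH in 3 of 3 mice of each genotype, 2.32-fold in Fabp4flox/flox and 3.05-fold in Fabp4CKO mice (exact two-sided permutation test, p = 0.1 in each, the smallest that 3 against 3 mice allow). The ratio of Igfbp5 to Igfbp2 was 6.78, 4.37 and 2.83 in Sham-Fabp4flox/flox and 0.680, 1.51 and 1.45 in ICH-Fabp4flox/flox mice, without overlap (exact permutation p = 0.1). In Fabp4CKO mice it was 13.1, 16.2 and 13.9 in sham and 11.6, 27.2 and 25.4 after ICH, with overlap (exact permutation p = 0.4). The ratio of Igf1 to Igf2 per kilobase was 0.00816 to 0.0713 in all sham mice, 0.126 to 0.433 in ICH-Fabp4flox/flox and 0.562 to 1.14 in ICH-Fabp4CKO mice, and within each genotype the exact permutation p was again 0.1.

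**Figure D5:**
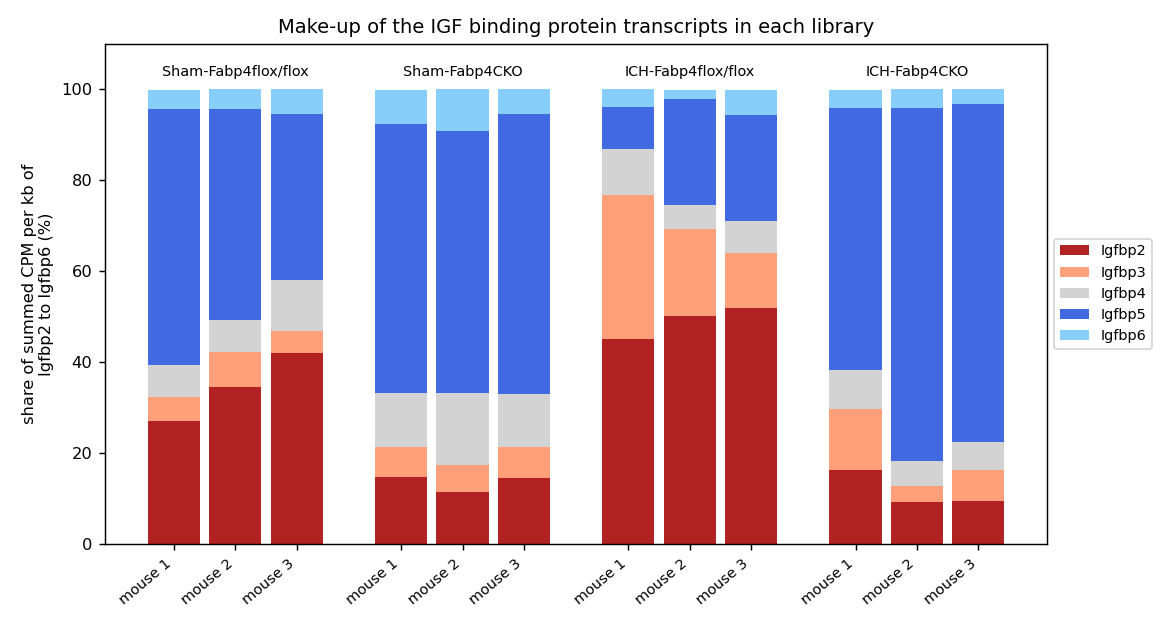
Share of Igfbp2, Igfbp3, Igfbp4, Igfbp5 and Igfbp6 in their summed CPM per kilobase (vertical axis, percent) in each of the 12 mice, grouped by surgery and genotype. Igfbp2, whose genotype difference chose the set, took 45.0% to 51.9% in ICH-Fabp4flox/flox mice and 9.29% to 16.2% in ICH-Fabp4CKO mice.

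Around the members, 4 further lists of the pathway were read in the comparisons of ICH with sham. Of 9 genes that regulate IGF availability, 7 were tested. Adam12, a protease that cuts binding proteins, rose in Fabp4flox/flox mice (log2 fold change 1.49, SE 0.34, adjusted p = 0.0110) and in Fabp4CKO mice (1.91, SE 0.48, adjusted p = 0.0300). Htra1, a secreted protease with the same activity, rose in Fabp4flox/flox mice (0.51, SE 0.14, adjusted p = 0.0242). These were 28.6% and 14.3% of the genes tested, beside 26.2% and 24.5% of all genes higher. None fell, and the medians of the list were -0.44 and -0.21 on the log2 scale. In Fabp4flox/flox mice the 2 calls became 1 on leaving out any Sham-Fabp4flox/flox mouse and 0 without ICH-Fabp4flox/flox mouse 2. In Fabp4CKO mice the 1 call was lost with the replicate number as a block and on leaving out any 1 of 5 mice, and without ICH-Fabp4CKO mouse 2 there were 4.

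Downstream of the receptor, 22 of 23 genes of receptors and signalling were tested, and most of those called were lower. In Fabp4flox/flox mice 1 rose and 8 fell, which is 4.55% and 36.4% of those tested beside 26.2% and 19.3% of all genes, with a list median of -0.32. In Fabp4CKO mice 3 rose and 7 fell, 13.6% and 31.8% beside 24.5% and 11.1%, with a median of -0.25. Shc1, an adaptor from the receptor to RAS, rose in both (2.11, SE 0.25, adjusted p = 0.000922, and 2.48, SE 0.46, adjusted p = 0.0128). Grb10, an adaptor that restrains IGF1R and insulin receptor signalling, fell in both, with log2 fold changes of -1.12 (SE 0.17, adjusted p = 0.00248) and -1.48 (SE 0.23, adjusted p = 0.00907). Irs4, a receptor substrate, fell in both as well (-5.21, SE 0.94, adjusted p = 0.00474, and -5.08, SE 0.92, adjusted p = 0.0122). Tsc1, a brake on mTOR, fell in Fabp4flox/flox mice (-0.85, SE 0.15, adjusted p = 0.00393), and Pdpk1, the kinase that activates AKT, in Fabp4CKO mice (-0.81, SE 0.19, adjusted p = 0.0244). Pik3r1 and Akt1 rose in Fabp4CKO mice by 0.45 (SE 0.12, adjusted p = 0.0368) and 0.48 (SE 0.15, adjusted p = 0.0485). Neuronal markers summed to 3366 to 4572 CPM in sham and 992 to 3218 in ICH mice, and their part in the lower genes was not tested. The 10 calls in Fabp4CKO mice became 0 to 5 on leaving out any mouse but ICH-Fabp4CKO mouse 2, 17 without that mouse, and 4 with the block.

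Of 4 genes of growth hormone input, which drives Igf1 in many tissues, Stat5a rose in both genotypes (2.10, SE 0.34, adjusted p = 0.00322, and 2.48, SE 0.35, adjusted p = 0.00754). Jak2 rose by 0.66 (SE 0.19, adjusted p = 0.0270) and 0.46 (SE 0.14, adjusted p = 0.0438). None of the 4 fell, and the medians were 0.55 and 0.18. In Fabp4CKO mice the count of 2 became 1 under 5 of the 6 alternatives other than leaving out a mouse, and on leaving out any mouse but ICH-Fabp4CKO mouse 2. In Fabp4flox/flox mice it became 1 without mouse 1 or 2 of either group. Of 4 genes that bind or accompany Igf2 mRNA, 3 were in the count table and only Igf2bp2 passed the filter on low counts. It rose by 2.58 (SE 0.45, adjusted p = 0.00417) and 3.01 (SE 0.73, adjusted p = 0.0266), the second call being lost with the block and on leaving out any Sham-Fabp4CKO mouse or ICH-Fabp4CKO mouse 1 or 3.

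The genes whose level over the 12 libraries was most like that of a member were read from Pearson's r of log2 CPM among 15079 genes, as a description over libraries that share their groups. For Igfbp2 they were Slc16a9 (r = 0.967), Wnt5b (0.952), Gbp4 (0.949), 9930012K11Rik (0.947) and Tgtp1 (0.944). Gbp4 and Tgtp1, both interferon-inducible GTPases, averaged 12.5 and 13.5 CPM in ICH-Fabp4flox/flox and 3.39 and 3.10 in ICH-Fabp4CKO mice. For Igf1 they were Sord (0.979), Trim65 (0.976), Ifngr2 (0.975), Efhd2 (0.974) and A4galt (0.971), each highest in ICH-Fabp4CKO mice. For Igf2 they were Col8a1 (0.924), Aqp1 (0.892), Fap (0.882), Cab39l (0.863) and Arl6ip1 (0.855). Aqp1, a water channel gene of the choroid plexus and one of its markers here, averaged 11.0 CPM in Sham-Fabp4flox/flox and 0.289 in Sham-Fabp4CKO mice, and Fap, a fibroblast protease gene, 3.26 in ICH-Fabp4CKO mice against 0.412 in ICH-Fabp4flox/flox mice.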

How the data were processed

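The authors deposited estimated counts per gene, made from aligned reads and not normalized, for 12 libraries of poly(A)-selected brain RNA sequenced on an Illumina instrument. The submitters' notes name Bowtie2 2.2.8, HISAT2, StringTie 1.3.1 and DESeq2, and the genome build and counting tool are not given in the sources used here. Each library had a column, 7.36% to 8.69% of its values were not whole, and counts were rounded. Replicates are separate mice. The depth of 15650813 to 22406216 counts limits precision by counting error only.

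Tests used edgeR 4.0.16 in R 4.3.3 (TMM, filterByExpr with a minimum count of 10 and minimum total of 15, quasi-likelihood F-test, Benjamini-Hochberg threshold 0.05) on the 6 libraries compared, or on 12 for the interaction, and were checked on simulated counts. SE is the log2 fold change divided by the square root of F. CPM used TMM library sizes, and lengths for levels per kilobase were GENCODE M21 exon unions. Promoter windows came from RefSeq. The members and lists were chosen with earlier results of these data known. All members are named; of each list, up to 3 higher and 3 lower genes past the threshold, ranked by p; for likeness, the 5 genes with highest r. Alternatives were relative log expression factors, library totals, DESeq2 1.42.0, no filter, a replicate block, 1 fit of 12 libraries, and each mouse left out. Figures used matplotlib 3.10.9.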

Additional observations from a re-analysis of the deposited data

How the results depend on the processing

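No member fold change that was past the threshold changed sign, among the comparisons of ICH with sham and the interaction. Values close to 0 did: in 9 of 50 pairs of member and comparison at least 1 setting gave the other sign. After ICH in Fabp4flox/flox mice Igf2r went from 0.03 to between -0.15 and -0.01 in 8 settings and Igfbp5 from -0.20 to 0.03 without ICH mouse 1, in Fabp4CKO mice Igf1r went from 0.04 to as low as -0.04, and the Igfbp4 interaction from -0.50 to 0.04. The other 5 pairs were genotype differences of Igf2r, Igfbp4 and Igfbp6. After ICH in Fabp4flox/flox mice the count of members lower was 1, 0 with all 12 libraries in one fit and 0 to 1 with each mouse left out. In Fabp4CKO mice the count higher was 7, and 1 to 8 with each mouse left out, reaching 2, 3 and 1 without Sham-Fabp4CKO mouse 1, 2 and 3. The fits without those mice also called fewer of all genes, 701 to 796 higher against 3605. Between genotypes, counts of members past the threshold moved with the setting and are not given, since that difference chose the set. In the interaction, 0 members became 3 with DESeq2 and 0 to 2 with a mouse left out.

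Over all genes, counts higher and lower between genotypes after ICH were 0 and 0, 233 and 291 with DESeq2 and 154 and 208 with all 12 libraries. In sham mice, 0 and 16 became 12 and 137 with DESeq2. In the interaction, 2 and 1 became 164 and 71 with DESeq2, 1 and 0 with the replicate block, and 260 and 111 without ICH-Fabp4CKO mouse 2. After ICH in Fabp4CKO mice the 1642 lower became 3479 with DESeq2, 2558 with all 12 libraries and 4896 without ICH-Fabp4CKO mouse 2. Whether same-numbered mice were paired is not given in the sources used here. For ICH against sham in Fabp4flox/flox mice, correlations around the group means ran from 0.023 to 0.196 for same-numbered mice. Differently numbered mice there had -0.188 to 0.032. Between the ICH groups these ranges were -0.575 to 0.311 and -0.556 to 0.642. With the replicate block, 6 members rose in Fabp4flox/flox mice, Igf1 and Igfbp6 being added, and 5 in Fabp4CKO mice, Igf2r and Igfbp4 being lost. The cause of these shifts was not tested.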

Other observations

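Of the 10 members, 8 carry the annotation of insulin-like growth factor binding in the deposited table, of 11 genes with it. These are Igf1r, Igf2r and Igfbp2 to Igfbp7. The other 2, Igf1 and Igf2, are among 16 genes annotated with binding to the insulin-like growth factor receptor. Ependymal markers, a further cell type at the ventricle, summed to 41.7 to 63.3 CPM in Sham-Fabp4flox/flox and 58.7 to 76.2 in Sham-Fabp4CKO mice.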
